A study of Mus musculus with 2 samples.

Results

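Transcripts of the Hox clusters A to D were measured in Lin-c-kit+Sca1+ cells of mouse bone marrow, the fraction that lacks lineage antigens, carries the receptor Kit and the antigen Sca-1, and holds the blood stem cells together with early progenitors of many lineages. The Hox probe sets were those whose only gene symbol in the platform's annotation was a Hox gene of cluster A, B, C or D. The rule used names and no measured value. It found 38 probe sets for 31 genes, of 12422 probe sets and 8251 named genes on the array besides controls. The data are 2 samples of 1 group, sample 1 and sample 2, from cells sorted out of bone marrow, whose RNA went through 2 rounds of amplification. The labels give no strain, age, treatment or second group, nor whether sample 1 and sample 2 are separate animals or sorts, so their spread may be technical. With 1 group of 2 samples no test was possible, and no p-value is given.

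Hox genes encode transcription factors that bind DNA through a homeodomain. In mammals they lie in 4 clusters, in which the paralogue number gives a gene's place from the anterior, early end to the posterior, late end. In embryos they set the identity of positions along the body axis. In blood they are known mainly from stem and progenitor cells, where genes of the A and B clusters take part in self-renewal and are switched off as cells mature, and where they act together with Pbx and Meis cofactors. In the mouse the clusters lie on chromosomes 6 (A), 11 (B), 15 (C) and 2 (D). The 38 probe sets covered 10 genes of the A, 9 of the B, 5 of the C and 7 of the D cluster. Signals of other Hox genes entered no count here.

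A signal is the quantile-normalized intensity of a probe set, in array units. A probe set was called above the background level where its signal in both samples exceeded the 90th percentile of that sample's 15 probe sets for bacterial genes, 12.1 in sample 1 and 8.91 in sample 2. Of the 38 Hox probe sets, 15 (39.5%) were above it, against 49.3% of all 12422 probe sets. Among 76 probe sets of 68 other homeobox genes, such as those of the Pax, Lhx, Dlx and Nkx families, 15 (19.7%) were above it. Among 69 probe sets of 52 genes typical of organs outside the blood system (liver, brain, muscle, pancreas, testis and others), 16 (23.2%) were. The Hox share thus lay below that of all probe sets and above those of these 2 lists. In a sample of mixed cells, fewer cells with a transcript and less transcript per cell cannot be told apart. By genes, 14 of 31 had at least 1 probe set above the level, against 57.0% of all named genes. Of the 26 Hox genes with a single probe set, which leaves no choice among probe sets, 10 were above it, against 51.9% of all such genes. With all probe sets of a gene required, the count was 11 of 31, against 44.9%.

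The Hox signals were low by a stricter measure. The organ genes' own probe sets gave a second level at their 90th percentile, 41.8 in sample 1 and 26.4 in sample 2. Only 2 of 38 Hox probe sets (5.26%) were above it in both samples, 1 each for Hoxa4 and Hoxb8, against 20.8% of all probe sets. Among the organ genes themselves 6 of 69 were above this level, a count held low by definition, since their own percentile set it. Among other homeobox genes 1 of 76 was above it. The highest bacterial probe set was at 12.9 in sample 1 and 12.4 in sample 2. Above it were 11 of 38 Hox probe sets (28.9%), against 45.2% of all probe sets. A level of 20 in both samples left 7 (18.4%), against 33.9% of all. The 7 were those of Hoxa2, Hoxa4, Hoxa6, Hoxb1, Hoxb8, Hoxb13 and Hoxd10. Other homeobox genes had 15.8% and 9.21% of probe sets above these 2 levels, and organ genes 20.3% and 11.6%.

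**Figure D1:**
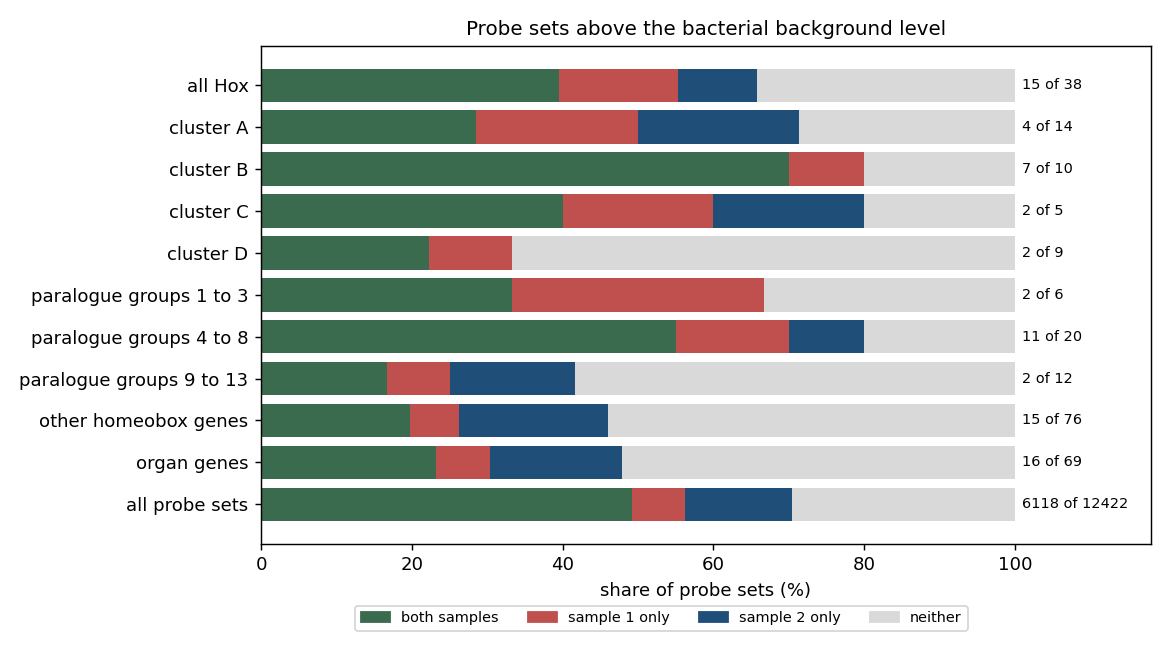
Share of probe sets (x axis, percent) above the bacterial background level in both samples, in sample 1 only, in sample 2 only or in neither, for all Hox probe sets, each cluster, 3 classes of paralogue number, other homeobox genes, organ genes and all probe sets. Cluster B had 7 of 10 probe sets above the level in both samples, and paralogue groups 4 to 8 had 11 of 20, while paralogue groups 9 to 13 had 2 of 12. Of all probe sets 49.3% were above it in both samples.

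By cluster, 7 of 10 probe sets of the B cluster were above the background level in both samples, 4 of 14 of the A cluster, 2 of 5 of the C cluster and 2 of 9 of the D cluster. By paralogue number, 2 of 6 probe sets of groups 1 to 3 were above it, 11 of 20 of groups 4 to 8 and 2 of 12 of groups 9 to 13. Of all probe sets on the array 49.3% were above it, near the 55% of groups 4 to 8. The difference between the middle and the posterior class depended on the level. At a level of 20 the middle class kept 3 of 20 probe sets, while the posterior class still had 2 of 12, those of Hoxb13 and Hoxd10. Of all probe sets 33.9% were above 20. The lead of the B cluster in number also depended on it, while its share, taken over fewer probe sets, stayed above that of the A cluster. Above the highest bacterial probe set the A cluster had 4 of 14 probe sets and the B cluster 4 of 10, against 45.2% of all probe sets. Above 20 they had 3 of 14 and 3 of 10, against 33.9%. At these 2 levels the B cluster share was thus below that of all probe sets. In sample 2 alone 7 of 14 and 7 of 10 were above the background level, against 7871 of all 12422. The probe sets of each class differ in their affinity, so the counts say which probe sets passed a level and do not rank transcripts by abundance.

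**Figure D2:**
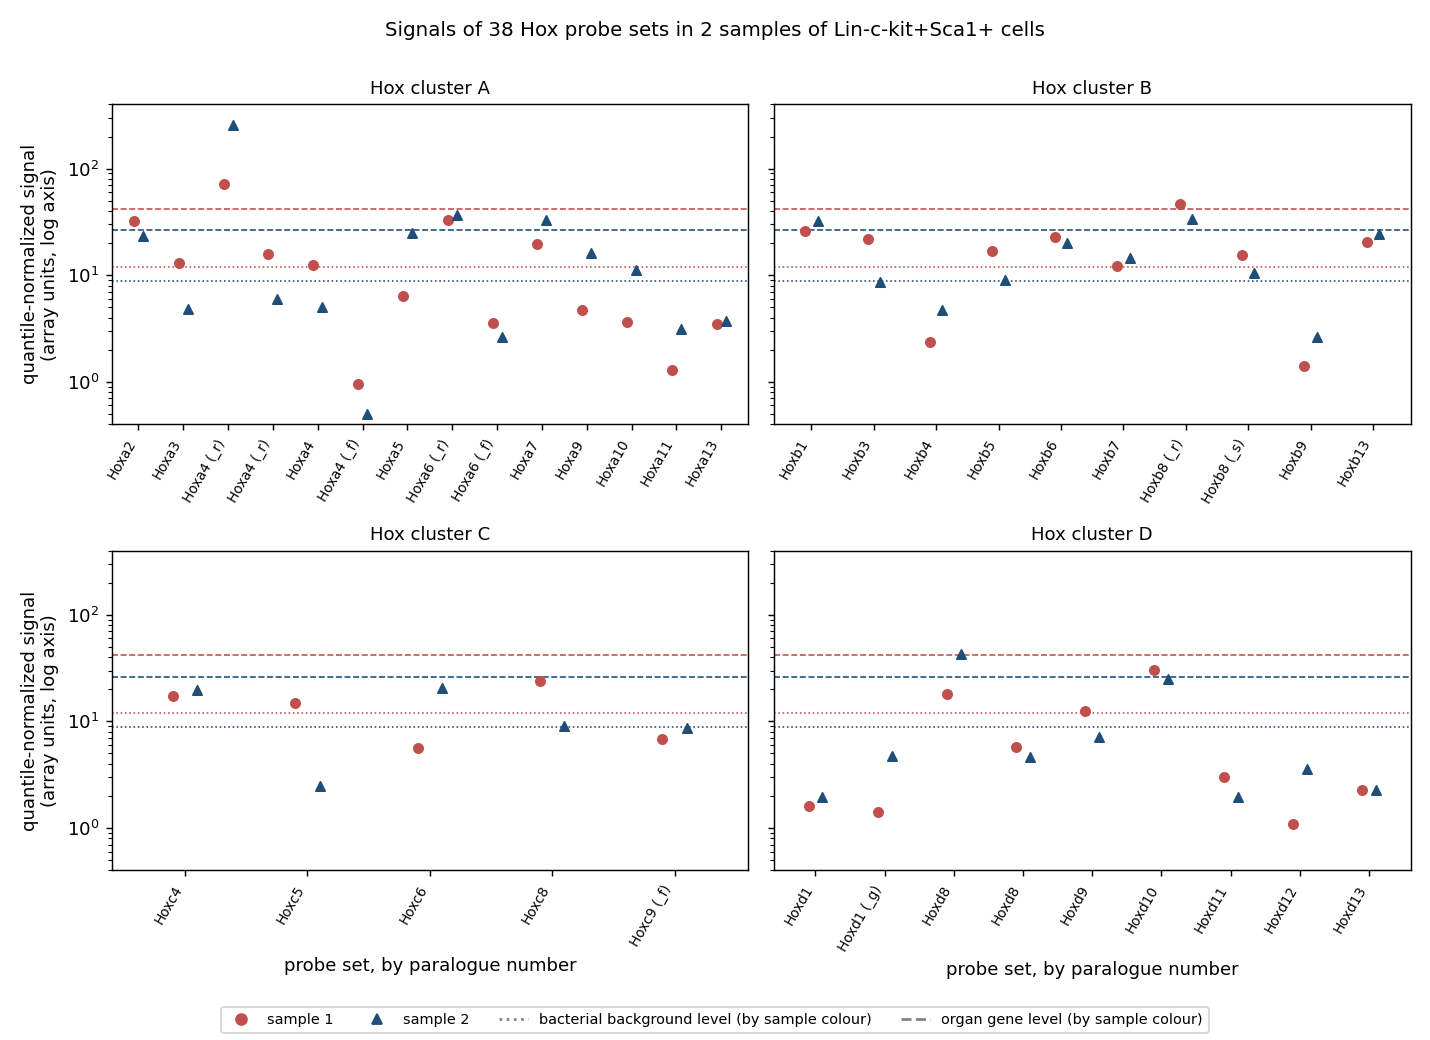
Quantile-normalized signals (y axis, array units, log scale) of the 38 Hox probe sets in sample 1 (circles) and sample 2 (triangles), by cluster and paralogue number, with the suffix of the probe set in brackets. Dotted lines are the bacterial background levels of 12.1 and 8.91, and dashed lines the organ gene levels of 41.8 and 26.4, for sample 1 and sample 2. One Hoxa4 probe set stands above all others, most of the remaining signals lie between 1 and 40, and 6 of 9 D cluster probe sets lie below both background levels.

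In the A cluster the probe sets of Hoxa2 and Hoxa7, 1 of 2 for Hoxa6 and 1 of 4 for Hoxa4 were above the background level in both samples. Hoxa2, which patterns the hindbrain and the second pharyngeal arch, gave 32.4 in sample 1 and 23.2 in sample 2. Hoxa7, a middle gene of the cluster, had 19.7 and 32.6. Both lay above the background levels in each sample, and Hoxa7 also passed the organ gene level in sample 2. Hoxa4, also from the middle of the cluster, had 71.5 in sample 1 and 257 in sample 2 by the probe set 97747_r_at, and its mean log2 signal was 7.08 ± 1.30 (SD, n = 2). Its other 3 probe sets did not show this. They had 15.7 and 5.95 (162402_r_at), 12.4 and 5.05 (97745_at) and 0.95 and 0.5 (97746_f_at), and 2 of these 3 passed the level in sample 1 only. For Hoxa6 the probe set 102580_r_at had 33.1 and 36.6, while 102579_f_at had 3.55 and 2.65.

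The posterior A genes best known from blood stem cells and leukaemia gave signals above the background level in sample 2 only. Hoxa9, a gene needed for full stem cell function and often overexpressed in acute myeloid leukaemia, had 4.70 in sample 1 and 16.0 in sample 2. Hoxa10, its neighbour with a like role in progenitors, had 3.65 and 11.2. Hoxa5, a middle gene of the cluster known for its role in lung development, had 6.45 and 24.8. All 3 lay below the level of 12.1 in sample 1 and above that of 8.91 in sample 2, but below 26.4. Hoxa3, a gene of pharyngeal organs such as the thymus, had the opposite pattern with 12.9 and 4.80. Hoxa11, of the limb and uterus, had 1.30 and 3.10, and Hoxa13, of the digits and the hind end of the gut and urinary tract, had 3.45 and 3.75, below the level in both samples.

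The B cluster had 7 probe sets above the background level in both samples, most of them close to it. Hoxb8, a gene used to hold myeloid progenitors in culture, had 46.3 in sample 1 and 34.0 in sample 2 by 96418_r_at (mean log2 signal 5.31 ± 0.32, SD, n = 2) and 15.4 and 10.6 by 96417_s_at. Both probe sets were above the level in both samples, the only case among the 5 Hox genes with more than 1 probe set. Hoxb1, of the hindbrain, had 25.9 and 32.5, and Hoxb13, the last gene of the cluster, known from the tail bud and prostate, had 20.4 and 24.3. Hoxb6 had 22.9 and 19.9. Hoxb5, which marks long-term stem cells in mice, had 17.1 and 8.95, and Hoxb7 had 12.2 and 14.6. The sample 2 signal of Hoxb5 and the sample 1 signal of Hoxb7 cleared their levels of 8.91 and 12.1 by a narrow margin. Hoxb3 passed in sample 1 only, with 22.0 and 8.70.

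Hoxb4, whose forced expression expands stem cells in culture and in transplanted mice, was not above the background level in either sample. Its only probe set gave 2.35 and 4.70. Hoxb9 had 1.40 and 2.65. Hoxb4 was thus not detectable with this probe set, which does not show that its transcript was absent.

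In the C cluster Hoxc4, a gene also known from lymphoid cells, had 17.4 in sample 1 and 19.6 in sample 2, and Hoxc8, of the thoracic skeleton, had 24.1 and 9.15. Both passed the background levels, Hoxc8 narrowly in sample 2. Hoxc5 passed in sample 1 only, with 14.8 and 2.50, and Hoxc6 in sample 2 only, with 5.60 and 20.8. Hoxc9 had 6.85 and 8.60 and passed in neither.

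In the D cluster, whose posterior genes shape the limbs and genitals, 6 of 9 probe sets were below the background level in both samples. Hoxd10 had 30.5 in sample 1 and 25.1 in sample 2. Hoxd8 had 18.0 and 42.7 by 160460_at but 5.75 and 4.60 by 93221_at, so its probe sets did not match. Hoxd9 passed in sample 1 only, with 12.4 and 7.20. The annotation gives the Hoxd9 and Hoxd10 probe sets the same source accession, so which of the 2 genes each probe set reads was not settled here. Hoxd11 had 3.0 and 1.95, Hoxd12 1.10 and 3.55, and Hoxd13, the digit gene, 2.25 in both. The probe sets of Hoxd1, the first gene of the cluster, had 1.60 and 1.95, and 1.40 and 4.70.

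Both Hox probe sets above the organ gene level were of one kind. By the array maker's naming, the suffix _r marks probe sets chosen after some selection rules were dropped, and the suffix _f marks probes shared by a gene family. Of 4 Hox probe sets with the suffix _r, 3 were above the background level in both samples and 2 above the organ gene level, those of Hoxa4 and Hoxb8. All 3 Hox probe sets with the suffix _f were below the background level in both samples. Over the whole array 41.1% of 901 _r probe sets and 55.5% of 1075 _f probe sets were above the background level. Without both kinds, a choice made after seeing the data, 12 of 31 Hox probe sets (38.7%) were above the background level, against 49.3% of the array without them, and 0 of 31 above the organ gene level, against 20.03%. The organ gene level was not recomputed for this count and still held such probe sets, among them bright _r probe sets of Tnp1 and Crybb2. The part that probe choice has in the Hoxa4 and Hoxb8 signals was not tested.

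The 2 samples differed in which Hox probe sets passed. In sample 1 only, 6 of 38 passed, against 7.04% of all probe sets. In sample 2 only, 4 of 38 passed, against 14.1%. The 6 were 2 for Hoxa4 and those of Hoxa3, Hoxb3, Hoxc5 and Hoxd9, and the 4 were Hoxa5, Hoxa9, Hoxa10 and Hoxc6. Sample 2 had the lower background level, and 7871 of all probe sets passed in it, against 6992 in sample 1.

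Differences between the samples are given as log2 of sample 1 minus log2 of sample 2, with signals under 20 set to 20, below which they have no order. Of the 15 Hox probe sets above the background level in both samples, 5 were higher in sample 1, 6 higher in sample 2, and 4 lay at the floor in both. Their median difference was 0, the same as over all 6118 probe sets above the level, whose replicate SD was 0.58 on the log2 scale. Without the floor the Hox median was -0.14, against 0.08 for all. Of the 15, 0 were 2-fold or more higher in sample 1, against 10.5% of all, and 2 were 2-fold or more higher in sample 2, against 9.4%. The floor limits this count, since without it Hoxc8 was 1.40 apart on the log2 scale, higher in sample 1. The 2 were Hoxa4 by 97747_r_at, 3.59-fold higher in sample 2, and Hoxd8 by 160460_at, at least 2.13-fold higher in sample 2. For each of these genes no other probe set passed the level in both samples. Among probe sets with both signals over the floor, Hoxa2 had the largest difference in the other direction, 0.48 on the log2 scale.

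**Figure D3:**
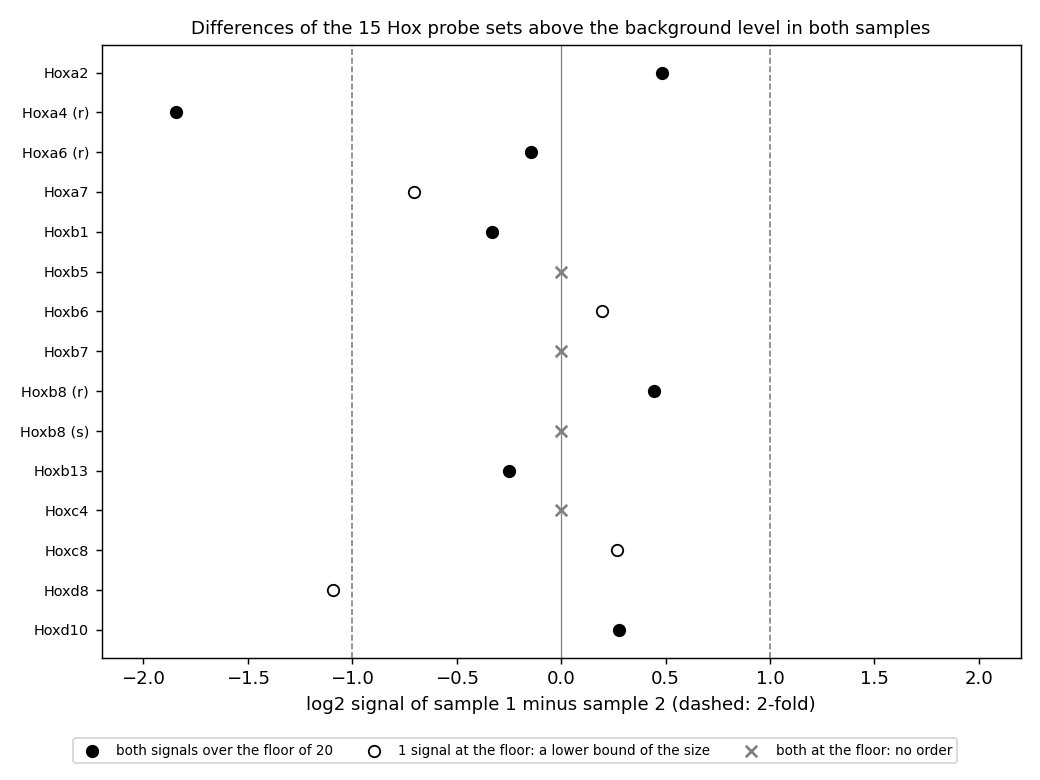
Difference in log2 signal between sample 1 and sample 2 (x axis, sample 1 minus sample 2) for the 15 Hox probe sets above the background level in both samples, with signals under 20 set to 20. Filled points have both signals over the floor, open points 1, and crosses none. Only Hoxa4 and Hoxd8 pass the dashed 2-fold lines, both toward sample 2.

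Hox proteins bind DNA with cofactors of the Pbx and Meis families, of which 8 probe sets for 6 of 9 listed genes were measured. Above the background level were 5 of the 8 (62.5%), against 49.3% of all probe sets. Above the organ gene level was 1 of the 8 (12.5%), against 20.8% of all. Pbx3 passed by all 3 of its probe sets, with 46.6 in sample 1 and 53.4 in sample 2, 17.1 and 18.7, and 13.7 and 10.4. Meis1, a partner of Hoxa9 in stem cells and leukaemia, had 18.6 and 40.3, at least 2.02-fold higher in sample 2. Pknox1, a relative of the Meis genes, had 36.4 and 25.9. Pbx2 had 5.30 and 23.1 and Meis2 3.25 and 9.90, above the level in sample 2 only, and Meis3 had 3.65 and 7.95.

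Sites for Pbx and Hox proteins together are commonly written TGATNNAT. In the RefSeq promoter windows of GRCm38.p6, cut to the 250 bases before each start site, this motif was searched on both strands. Windows were at hand for 22 Hox genes, 24 windows in all, with none for Hoxa4. The windows include those of Hoxd3 and Hoxd4, for which no probe set naming that gene alone was measured. The motif stood in 4 of 24 (16.7%), against 7.68% of all 32851 windows. Those were the windows of Hoxa2, Hoxb1, Hoxb8 and Hoxd11. They are shown for the first 3, which had a probe set above the background level, because their cofactors were measured in the same cells. Hoxb1 is known for sites of this kind through which its protein keeps its own gene on in the hindbrain. The motif is in capitals, and it reads on the printed strand in Hoxb1 and on the opposite strand in Hoxa2 and Hoxb8. The windows are chr11:96365508-96365757 (plus strand), chr6:52164832-52165081 (minus strand) and chr11:96281655-96281904 (plus strand), each printed 5′ to 3′ on the strand of the gene.
Hoxb1: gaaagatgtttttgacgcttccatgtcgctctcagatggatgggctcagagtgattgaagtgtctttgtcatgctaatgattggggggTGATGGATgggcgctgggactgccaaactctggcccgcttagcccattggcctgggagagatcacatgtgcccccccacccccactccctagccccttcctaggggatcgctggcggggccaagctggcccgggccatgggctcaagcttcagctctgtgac
Hoxa2: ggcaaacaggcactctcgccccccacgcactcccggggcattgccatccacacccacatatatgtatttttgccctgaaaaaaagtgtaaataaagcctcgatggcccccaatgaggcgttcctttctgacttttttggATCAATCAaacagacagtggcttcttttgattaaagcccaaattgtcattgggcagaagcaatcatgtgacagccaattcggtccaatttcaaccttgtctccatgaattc
Hoxb8: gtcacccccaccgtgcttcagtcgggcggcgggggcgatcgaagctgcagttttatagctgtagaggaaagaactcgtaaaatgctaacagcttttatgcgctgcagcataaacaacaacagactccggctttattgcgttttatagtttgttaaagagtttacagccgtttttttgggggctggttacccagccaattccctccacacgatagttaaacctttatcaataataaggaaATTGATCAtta
The motif starts 162 bases before the start site in Hoxb1, 111 in Hoxa2 and 11 in Hoxb8. A match describes letters and does not show that a protein binds there. The CCAAT box, a common promoter element, was in 14 of the 24 Hox windows on either strand (58.3%), against 33.8% of all, TATAAA in 4 (16.7%), against 12.4%, and the E-box CACGTG in 4 (16.7%), against 6.02%.

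Activators of Hox genes include the Trithorax protein Kmt2a (Mll), which methylates histone H3 at Hox promoters, its partners, the Cdx factors and the retinoic acid receptors. Of 17 probe sets for 15 of 20 listed genes, 7 (41.2%) were above the background level, against 49.3% of all probe sets. Above the organ gene level were 2 of the 17 (11.8%), against 20.8% of all. Kmt2a passed by both of its probe sets, with 33.0 in sample 1 and 62.6 in sample 2, and 28.1 and 36.1. Mllt3 (Af9), a protein of the elongation complexes to which Kmt2a is fused in leukaemia, had 157 and 604, 3.84-fold higher in sample 2. The retinoid receptor Rxra had 44.9 and 30.8 by one probe set and 16.0 and 56.8 by another, which went in opposite directions. The Kmt2a partners Psip1 and Wdr5 had 17.4 and 16.7, and 15.2 and 11.1. Men1, which tethers Kmt2a to Hox genes, had 5.05 and 8.40, and Cdx4, an activator of Hox genes in early blood, had 8.90 and 5.75, both below the level in both samples.

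Repressors of Hox genes are chiefly the Polycomb complexes, which methylate or ubiquitinate histones over silent clusters. Of 23 probe sets for 17 of 20 listed genes, 12 (52.2%) were above the background level, near the 49.3% of all probe sets, and 7 (30.4%) above the organ gene level, against 20.8%. The methyltransferase gene Ezh2 had 90.4 in sample 1 and 44.6 in sample 2, 2.03-fold higher in sample 1. Its relative Ezh1 had 49.6 and 66.4. Suz12, a core subunit of the same complex, had 63.7 and 47.6 by one probe set, 14.8 and 15.1 by another and 0.6 and 2.05 by the last. Eed, the other core subunit, had 42.7 and 7.20 and passed in sample 1 only. The histone-binding subunits Rbbp7 and Rbbp4 had 442 and 159, and 158 and 95.1.

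Jarid2, which guides the methylating complex, had 173 in sample 1 and 349 in sample 2, 2.02-fold higher in sample 2. Bmi1, a subunit of the ubiquitinating complex needed for stem cell self-renewal, had 53.4 and 25.7, 2.08-fold higher in sample 1. Gmnn (geminin), a replication inhibitor that also binds Hox proteins, had 81.5 and 35.0, 2.33-fold higher in sample 1. Over the 12 repressor probe sets above the level, 8 were higher in sample 1, 3 in sample 2 and 1 was at the floor, with 4 of 12 at least 2-fold higher in sample 1, against 10.5% of all probe sets, and 1 of 12 at least 2-fold higher in sample 2, against 9.4%. The 4 were those of Rbbp7, Gmnn, Bmi1 and Ezh2, and the 1 that of Jarid2. Over the 7 activator probe sets, 1 was higher in sample 1, 4 in sample 2 and 2 were at the floor. Both Kmt2a probe sets were among the 4, and Rxra had 1 in each direction. Over all 6118 probe sets above the level, 2830 were higher in sample 1, 2594 in sample 2 and 694 equal. Among the other repressor probe sets the samples differed the other way. In sample 2 only, 6 of 23 (26.1%) passed, against 14.1% of all probe sets, among them one for Cbx2 (6.75 and 38.4) and one for Rnf2 (3.25 and 25.7), both of the ubiquitinating complex, and those of Ring1, Phc2, Cbx7 and Cyp26a1. In sample 1 only, 2 passed, against 7.04%, those of Eed and Phc1. These lists were chosen with earlier results of these arrays known.

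**Figure D4:**
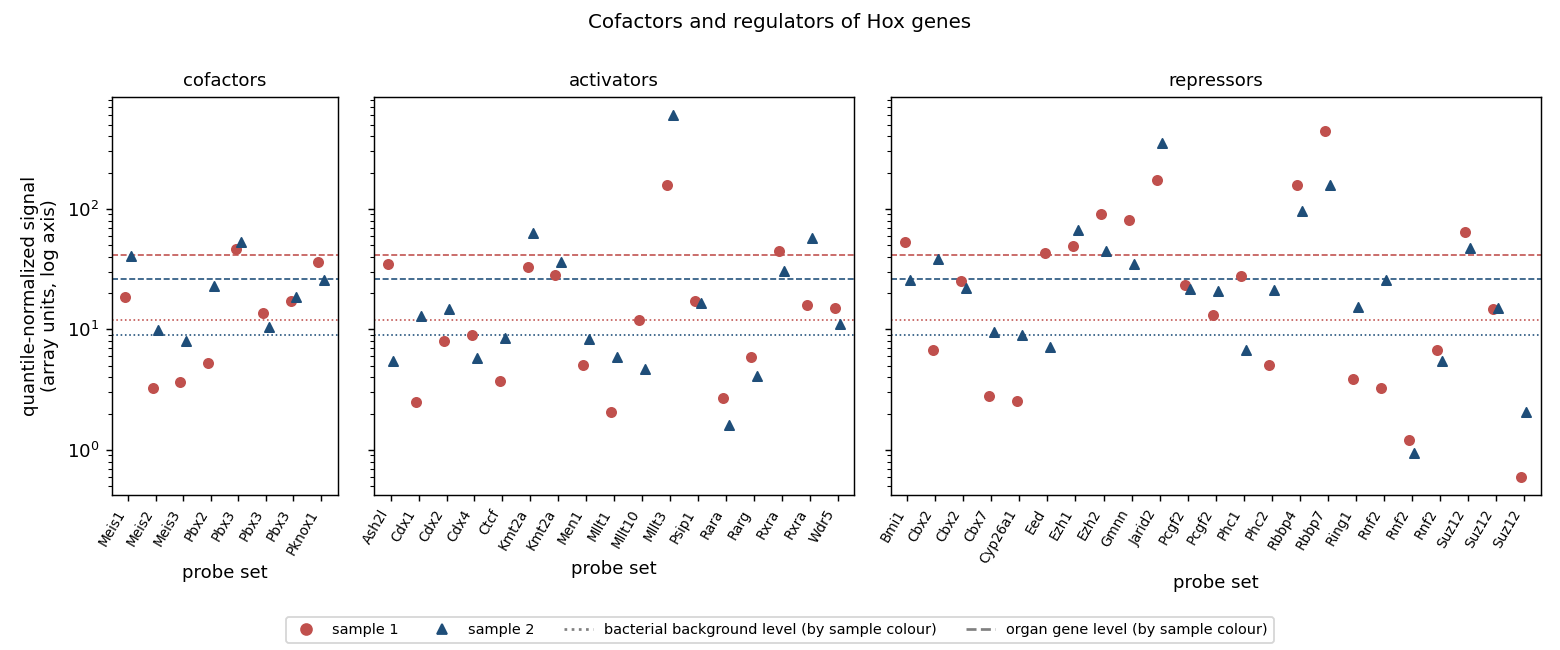
Quantile-normalized signals (y axis, array units, log scale) in sample 1 (circles) and sample 2 (triangles) of the probe sets of Hox cofactors, activators and repressors. Dotted lines are the bacterial background levels and dashed lines the organ gene levels of each sample. The signals over 100 are those of Mllt3, Jarid2, Rbbp4 and Rbbp7.

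Markers of the sorted cells and of other cells were read in the same way, against 49.3% of all probe sets above the background level and 20.8% above the organ gene level. Of 28 probe sets for 17 stem and progenitor genes, 17 were above the background level in both samples and 11 above the organ gene level, and the summed signals of the list were 2744 in sample 1 and 4439 in sample 2. One probe set of Lyl1, with 695 and 2224, made most of this gap, and the other 27 summed to 2048 and 2215. Kit, chosen after its values were seen, had 25.8 and 19.4. Of 35 probe sets for 19 stromal and endothelial genes, tissues in which Hox genes are also active, 12 (34.3%) passed the background level. Above the organ gene level were 3 (8.57%), and the summed signals were 652 and 804. Of the 19 genes 12 had a probe set above the background level in both samples, near the 57.0% of all named genes. Among the 12 were the collagen genes Col1a2 (174 and 192, and 3.85 and 3.45 by another probe set), Col5a1 (80.9 and 56.7) and Col1a1 (55.8 and 43.4), and the endothelial genes Tie1 (34.2 and 175) and Emcn (36.2 and 52.5). Their other probe sets were lower, with 5.50 and 10.7 for Col5a1, 1.40 and 12.9 for Col1a1 and 2.80 and 4.70 for Tie1. Those of Emcn had 2.80 and 1.40, and 3.55 and 2.65. The higher signals of Col1a2 and Tie1 came from probe sets with the suffixes _r and _f. Other genes of the list, such as Cdh5 (1.85 and 1.20), Pdgfrb (10.3 and 4.30) and Postn (10.4 and 6.50), were not above the level in both samples. These genes other than Col1a2, Col5a1 and Tie1 were chosen after their values were seen. Of 18 probe sets for 15 genes of mature lineages, 7 (38.9%) passed the background level and 3 (16.7%) the organ gene level, with sums of 570 and 583. The near-equal sums held opposite differences, with the neutrophil gene Camp at 91.9 and 269, the elastase gene Elane at 220 and 88.4 and the macrophage receptor gene Csf1r at 108 and 39.5 by one probe set and 34.8 and 37.4 by another. The part of such cells in the Hox signals was not tested.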

How the data were processed

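The labels describe 2 samples of 1 group, from RNA amplified in 2 rounds. The deposited table gives a linear signal intensity for each of 12488 probe sets in each sample. The deposited intensity columns have the same mean, 53.9. Software, scaling, background correction and genome build are not given in the sources used here. With no detection calls or probe-level values, the number of arrays limits the precision.

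Both columns were quantile-normalized over all probe sets, and 66 control probe sets were then left out. Levels came from the percentiles given in the text. For differences, signals under 20 were set to 20 before log2, which held 57.7% of values in each sample. The platform annotation named 1 gene for 10833 probe sets, several for 396 and none for 1193, and those with several were not assigned. The gene table of GRCm38.p6 changed 0 Hox symbols. All Hox probe sets are named. Of the cofactor and regulator lists any probe set above the level could be named, and others of those lists were chosen after their values were seen. Members and lists were chosen with earlier results of these data known. The procedure was tested on simulated data, with differences planted only in bright probe sets and with noise below the replicate SD of these data. That test did not cover calls close to the background level or differences at the floor. Python 3.11.15, NumPy 2.4.6 and pandas 2.3.3 were used.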

Additional observations from a re-analysis of the deposited data

Results flagged for a closer look

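Probe sets that name more than 1 Hox gene entered no count, but 2 of them were above the bacterial background level in both samples. The probe set 92915_s_at, which names Hoxb7 and Hoxb8, gave 48.85 in sample 1 and 24.4 in sample 2, 2.0-fold higher in sample 1. The probe set 98367_at, which names Hoxd3 and Hoxd4, had 20.85 and 16.9, while 102380_s_at, which names the same genes, had 6.45 and 7.30.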

How the results depend on the processing

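The count of 15 Hox probe sets above the background level was 7 with a level of 20 and 2 with the organ gene level, and that of 14 Hox genes was 7 and 2. With the other levels, scalings and probe set choices tried, these counts stayed within 1.5 times. In 1 sample alone they were 19 to 21 probe sets and 18 genes. At the organ gene level, cofactors fell to 1 of 8 probe sets (12.5%), activators to 2 of 17 (11.8%), repressors to 7 of 23 (30.4%) and other homeobox genes to 1 of 76 (1.32%). Of all probe sets 20.8% were above that level. In 1 sample alone other homeobox probe sets numbered 20 to 30 and organ probe sets 21 to 28, the higher counts in sample 2. The count of 2 Hox probe sets at least 2-fold apart became 3 without the floor, where Hoxc8 was added toward sample 1, 1 with an offset of 32 and 1 without _r and _f probe sets, a choice made after seeing the data. In 1 sample alone the A cluster had 7 probe sets above the level in either sample, against 4 in both, groups 1 to 3 had 4 in sample 1 and groups 9 to 13 had 4 in sample 2, against 2 each in both. The median Hox difference ranged from -0.14 to 0 with 1 choice changed, and was -0.17 with median-centring and no floor together. No floor moved 19 of 38 single differences by more than the replicate SD, and other scalings moved 0. The median of all probe sets without the floor was 0.08 with quantile normalization, 0.18 as deposited and 0.05 with median-centring. No paired analysis was possible because there is 1 group. Signals near the bacterial level limit what can be said of most Hox genes.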

Other observations

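Of the other homeobox genes, Hlx, which is active in blood progenitors, gave 25.5 in sample 1 and 136 in sample 2, 5.35-fold higher in sample 2. Vax1, of the developing eye, had 49.4 and 30.1, and Pax4, of pancreatic islets, had 23.5 and 44.9. Hhex, a blood and endothelial homeobox gene chosen after its values were seen, had 16.5 and 41.3, at least 2.06-fold higher in sample 2. The organ genes with the highest signals above the background level were Tnp1 (93.7 and 244), Crybb2 (88.3 and 77.1) and Gh (104 and 58.6). Another probe set of Tnp1 had 0.95 and 1.60, and another of Crybb2 2.05 and 5.15. Probe sets for Hoxa11os, the antisense transcript of Hoxa11, had 5.25 and 9.80, and 2.35 and 2.70, against 1.30 and 3.10 for Hoxa11.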
